A study of Mus musculus with 6 samples.

Results

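The genes that supply deoxynucleotides, the building blocks of DNA, were compared between AML-12 mouse hepatocytes with and without silencing of manganese superoxide dismutase (MnSOD, gene Sod2). The set held 9 genes: the ribonucleotide reductase subunits Rrm1, Rrm2 and Rrm2b, the deoxynucleoside kinases Tk1, Tk2 and Dck, and the dUMP and thymidylate enzymes Tyms, Dut and Dctd. They were chosen by gene name as 1 enzyme group when results of these arrays, including the difference between the groups, were already known. The knockdown minus control differences of these 9 genes are therefore a description and carry no test. A gene counted as measured if a probe set was annotated with its symbol alone, and where there were several, the probe set was selected on its mean log2 intensity over the arrays. All 9 were measured, of 19938 genes with such a probe set.

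Both groups were AML-12 cells, a line grown from the hepatocytes of mice carrying a human transforming growth factor alpha transgene. The siMnSOD group carried a retroviral hairpin RNA designed for a low degree of MnSOD silencing. The siScramble group carried a hairpin with a scrambled sequence that recognises no gene, in the same vector. All cells had passed through puromycin selection. Each group had 3 Affymetrix Mouse Gene 1.0 ST arrays, titled as biological replicates and hybridised with RNA from different batches of frozen cells. Nothing in the labels says that the batches came from separate transductions, so the errors and p-values cover the spread among these 6 arrays, which may be technical.

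Ribonucleotide reductase turns ribonucleotides into deoxyribonucleotides. Its large subunit, encoded by Rrm1, holds the catalytic site, and a small subunit, encoded by Rrm2 or Rrm2b, supplies the tyrosyl radical that starts the reaction. Rrm2 is the small subunit of S phase and is degraded when cells leave mitosis, whereas Rrm2b is induced by p53 and serves DNA repair and mitochondrial DNA in cells that do not divide. Thymidylate comes from dUMP through Tyms, from dCMP through Dctd and then Tyms, or by salvage of thymidine through Tk1 in the cytosol and Tk2 in mitochondria.

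The arrays as a whole had median intensities between 26.8 and 33.6. In limma, 432 genes were higher and 316 lower in siMnSOD at an adjusted p under 0.05, or 365 and 140 with each array centred on its median. The counts depended on single arrays of both groups. They were 52 and 25 without siMnSOD replicate 2, 100 and 68 without siMnSOD replicate 1, 133 and 50 without siScramble replicate 1, 118 and 33 without siScramble replicate 2, 357 and 201 without siMnSOD replicate 3, and 1119 and 1119 without siScramble replicate 3. Sod2 had a log2 intensity of 6.63, 6.92 and 5.71 in siMnSOD replicates 1, 2 and 3. In the siScramble replicates it was 7.95, 7.99 and 8.20, so the groups did not overlap. In siMnSOD 32.4% of the control geometric mean was left (limma adjusted p = 0.037, at most 0.13 when 1 array was left out). The Sod2 difference of −1.63 became −1.27 without siMnSOD replicate 3 and −1.88 without siMnSOD replicate 2. It did not pass the threshold without siMnSOD replicate 1 or 2 or siScramble replicate 1 or 2. With arrays centred on their medians or with all probe sets tested it did not pass either (limma adjusted p = 0.069 and 0.063). The keratin genes Krt8 and Krt18 and the hepatocyte regulator Hnf4a were well above the background guide of 4.28 on the log2 scale, which is the 95th percentile of 1027 olfactory receptor genes. Albumin (Alb) and transthyretin (Ttr), 2 defining products of hepatocytes, were not above it. Of 7 hepatocyte markers measured, Hnf4a alone passed the threshold, with a difference of 1.09, and Krt8 also passed with the replicate number as a block (difference 0.59, adjusted p = 0.12, or 0.043 with the block). No hepatocyte marker passed without siMnSOD replicate 1 or 2 or siScramble replicate 2. Of 5 leukocyte, 5 endothelial and 6 stellate cell or fibroblast markers measured, 3, 0 and 4 were above the background guide. None of them passed limma's threshold in either direction, and none had an unadjusted p under 0.05. For the markers not above the guide this shows little, because a difference could hardly be seen there.

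The upstream sequence of 3 of the genes that were higher in siMnSOD, Rrm1, Rrm2 and Dck, is shown because their windows differ in which short words they hold. Tk1, Tyms, Dut and Dctd were higher too and are not shown. The RefSeq promoter table (GRCm38.p6) held windows of 250 bases before to 50 after the transcription start for 8 of the 9 genes, in 10 windows. The stretches below end at the base before the start, run 5′ to 3′ on the plus strand and are 150 bases long. Capitals mark every match, on either strand, to CCAAT, to the GC box GGGCGG, which reads CCGCCC on the other strand,, to ATGGCGGC, a word of the type that the factor YY1 binds, and to any of the 4 short E2F words of 7 letters, which are TTCCCGC as the first, TTCGCGC as the second, TTGCCGC as the third and TTGGCGC as the last. ATGGCGGC and the 7-letter words were chosen after the sequences had been seen. Adjoining matches run together.
Rrm1, chr7:102441545-102441694: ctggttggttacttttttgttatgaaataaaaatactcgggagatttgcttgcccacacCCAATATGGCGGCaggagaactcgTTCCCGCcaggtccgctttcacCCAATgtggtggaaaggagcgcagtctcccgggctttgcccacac
Rrm2, chr12:24708104-24708253: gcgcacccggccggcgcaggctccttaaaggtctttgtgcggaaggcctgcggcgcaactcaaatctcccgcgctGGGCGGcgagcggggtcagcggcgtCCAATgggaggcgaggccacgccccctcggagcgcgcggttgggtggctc
Dck, chr5:88764863-88765012: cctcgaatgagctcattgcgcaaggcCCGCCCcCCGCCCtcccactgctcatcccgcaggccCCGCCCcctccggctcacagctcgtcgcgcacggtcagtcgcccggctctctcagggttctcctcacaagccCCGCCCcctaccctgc

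Both reductase genes shown carry CCAAT in the sense direction, Rrm1 at positions −91 and −45 and Rrm2 at −50, counted from the start. Of the other genes of the set, only Dctd had this word in a window. So 3 of 8 genes, or 4 of 10 windows, held it, against 37.4% of the 32851 windows in the table. A GC box was present for 7 of 8 genes, or in 8 of 10 windows, against 35.7% of all windows. Rrm1 had none, and Tk2, which was not higher in siMnSOD, had 2 of them. The Dck window held 6 GC boxes, all on the minus strand and 4 of them within the stretch shown. How many of all windows held 6 was not counted. ATGGCGGC occurred in Rrm1 alone, at −86 and again at 6. Of all windows, 2.24% held it at least 1 time, and 25 of the 32851 held 2 or more. No window of the set held an 8-letter E2F word (TTTCCCGC, TTTCGCGC, TTTGCCGC or TTTGGCGC), which 2.26% of all windows did. A 7-letter E2F word was found in Rrm1 at −67 and in Rrm2 at −235, beyond the stretch shown, against 9.57% of all windows. These matches describe letters in 1 window per start and show no binding.

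Rrm2 and Tk1, the reductase subunit and the thymidine kinase of S phase, were each higher in siMnSOD by more than 2.5 log2 units. Rrm1, Tyms and Dck were higher by 1.29 to 1.70, and Dut and Dctd by 0.75 and 0.50. Rrm2b and Tk2, the counterparts of Rrm2 and Tk1 that work outside S phase or in mitochondria, had slightly lower means in siMnSOD, and neither passed the threshold (limma adjusted p = 0.19 and 0.50). The median difference of the 9 genes was 1.29, and that of all 19938 genes was 0.01.

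**Figure D1:**
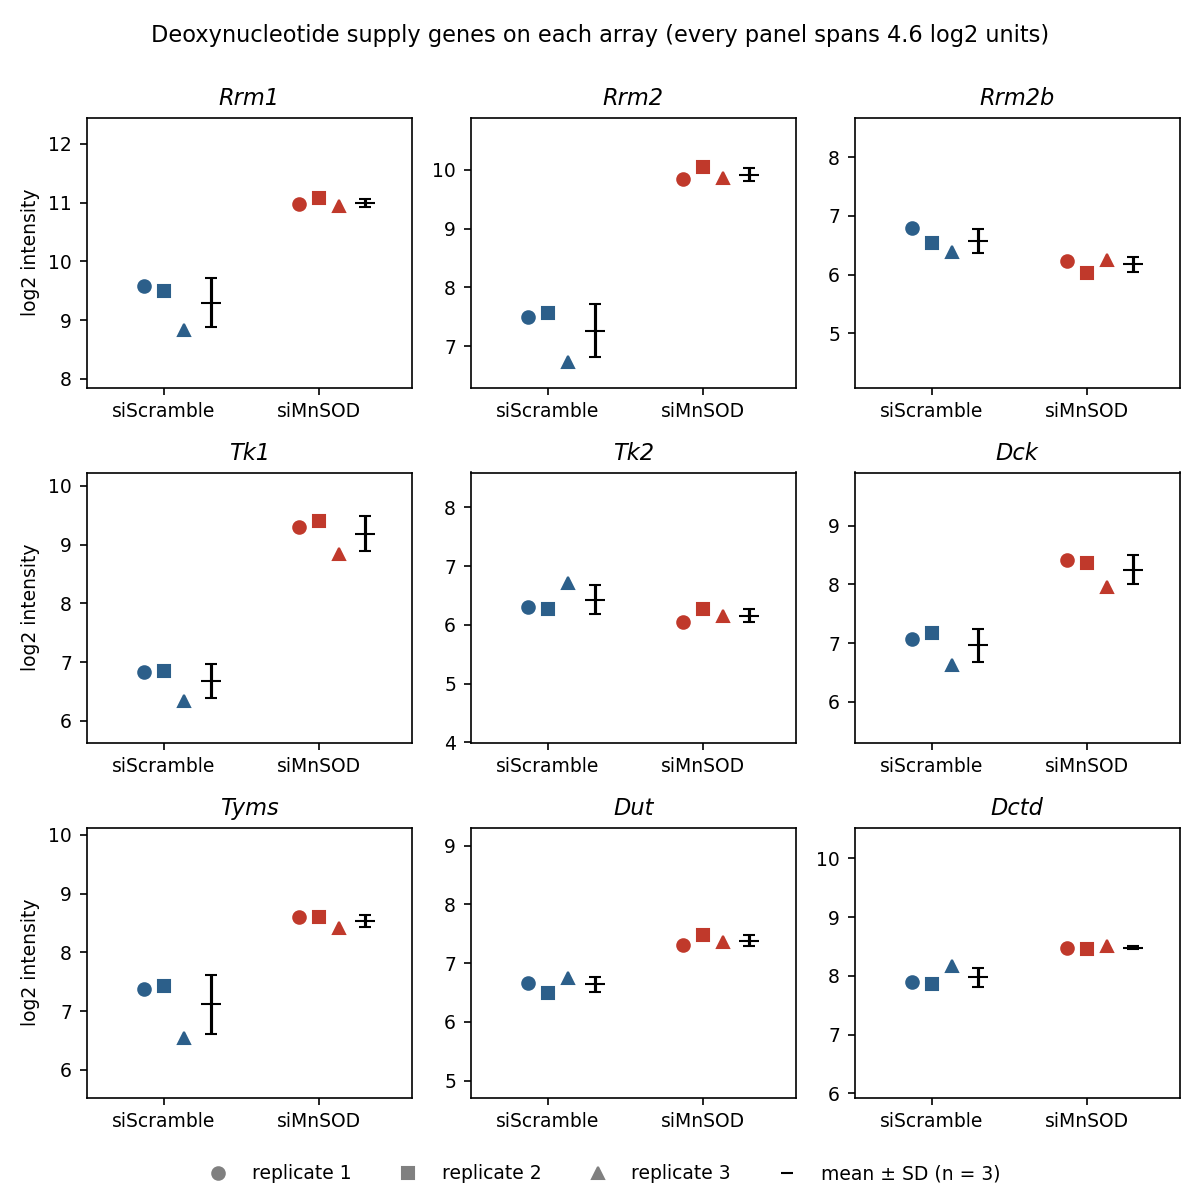
Log2 intensity (vertical axis) of the 9 deoxynucleotide supply genes on each array, siScramble in blue and siMnSOD in red, with symbols for the replicate number and the mean ± SD of 3 arrays beside each group. All panels span the same range, so distances compare between genes while positions on the axis do not; the groups are apart for every gene except Tk2, and siScramble replicate 3 is the lowest control array for Rrm1, Rrm2, Rrm2b, Tk1, Tyms and Dck.

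Rrm1 had log2 intensities of 10.98, 11.08 and 10.95 in siMnSOD replicates 1, 2 and 3. On the siScramble arrays it read 9.58, 9.50 and 8.83. The knockdown arrays lay close together, and the controls spread more, with replicate 3 lower than the other two. The difference was 1.70 (SE 0.20), a 3.25-fold higher geometric mean in siMnSOD.

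Rrm2 read 9.84, 10.04 and 9.87 on the siMnSOD arrays. The siScramble arrays gave 7.50, 7.56 and 6.74. Every knockdown array was more than 2 log2 units above every control array, and control replicate 3 was again the lowest. The difference of 2.66 (SE 0.23), or 6.30-fold, was the largest of the set.

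Rrm2b is the p53-induced small subunit. Its log2 intensity was 6.23, 6.03 and 6.26 in siMnSOD and 6.79, 6.55 and 6.39 in siScramble. The groups did not overlap, but the highest knockdown array and the lowest control array were only 0.14 apart. The difference was −0.41 (SE 0.14), which did not pass the threshold. Within replicate numbers 1, 2 and 3 it was −0.56, −0.52 and −0.14. Its sign was opposite to that of Rrm2 and Rrm1.

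Tk1, which phosphorylates thymidine in the cytosol of S-phase cells, read 9.30, 9.41 and 8.85 in siMnSOD and 6.83, 6.84 and 6.34 in siScramble. Replicate 3 was the lowest array in both groups, by 0.51 and 0.50 against the mean of the other two, and the groups were about 2 log2 units apart at their nearest. The difference was 2.51 (SE 0.20), a 5.70-fold higher mean, and it was 2.46, 2.56 and 2.50 within replicate numbers 1, 2 and 3. Tk1 was the only gene of the set with a second probe set. That dimmer probe set gave 8.59, 8.31 and 7.16 in siMnSOD and 6.56, 6.65 and 5.92 in siScramble, also without overlap, and a smaller difference of 1.64 (SE 0.40). In the limma fit over all probe sets its adjusted p was 0.12, and that of the brighter probe set was 0.0092.

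Tk2, which makes thymidine and deoxycytidine monophosphates in mitochondria, was the 1 gene whose groups overlapped. It read 6.06, 6.27 and 6.15 in siMnSOD and 6.31, 6.26 and 6.71 in siScramble. The knockdown replicate 2 array lay above the control replicate 2 array by 0.01, and the control mean was raised by replicate 3. The difference was −0.27 (SE 0.15).

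Dck phosphorylates deoxycytidine and purine deoxynucleosides in salvage outside mitochondria. It read 8.42, 8.37 and 7.97 in siMnSOD and 7.07, 7.18 and 6.63 in siScramble. As for Tk1, replicate 3 was the lowest array of both groups. The difference was 1.29 (SE 0.19), or 2.45-fold, and the values within replicate numbers stayed between 1.19 and 1.35.

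**Figure D2:**
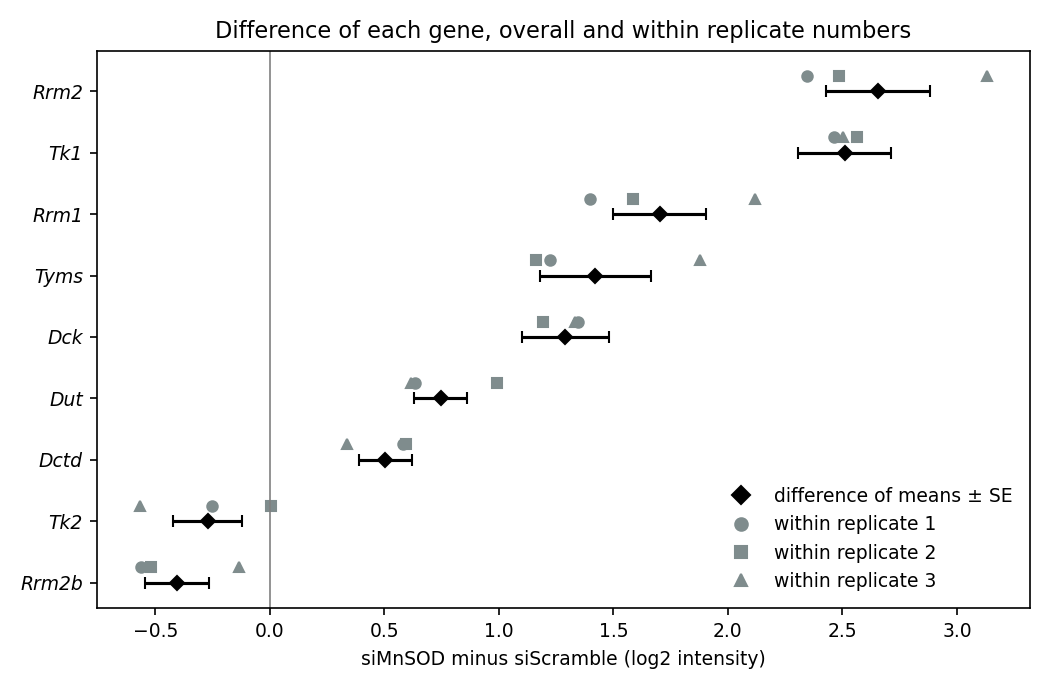
Difference between siMnSOD and siScramble in log2 intensity (horizontal axis) for each of the 9 genes, ordered by size. Black diamonds are differences of group means with the SE of the fit over all genes, and grey symbols are differences within replicate numbers 1, 2 and 3. Rrm2, Rrm1 and Tyms have their largest value within replicate number 3, Tk1 and Dck are alike in all 3, and only Tk2 has a value on each side of 0.

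Of the enzymes around dUMP, Tyms, the thymidylate synthase that methylates dUMP, showed the largest difference. Its log2 intensity was 8.59, 8.60 and 8.42 in siMnSOD and 7.37, 7.44 and 6.54 in siScramble. Control replicate 3 was 0.86 below the mean of the other two controls, which made Tyms the gene of the set with the widest control group. The difference was 1.42 (SE 0.24), or 2.68-fold, and it was 1.22, 1.16 and 1.88 within replicate numbers 1, 2 and 3.

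Dut removes pyrophosphate from dUTP, which yields dUMP for Tyms and keeps uracil out of DNA. It read 7.30, 7.48 and 7.36 in siMnSOD and 6.67, 6.49 and 6.75 in siScramble. The groups were apart, and control replicate 3 was the highest control, unlike for Tyms. The difference was 0.75 (SE 0.12), or 1.68-fold.

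Dctd deaminates dCMP to dUMP. The siMnSOD arrays read 8.48, 8.46 and 8.50, the narrowest group of the set, and the siScramble arrays 7.89, 7.87 and 8.17. Here too replicate 3 was the highest control, and the groups did not overlap. The difference was 0.50 (SE 0.12), or 1.42-fold, and it was 0.58, 0.59 and 0.34 within replicate numbers 1, 2 and 3.

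In the limma fit over all tested rows, 6 of the 9 genes were past an adjusted p of 0.05 with higher values in siMnSOD, where 2.17% of all genes were. They were Rrm1, Rrm2, Tk1, Tyms, Dut and Dck. No gene of the set was past it with lower values, against 1.58% of all genes, and 8 of the 9 had an unadjusted p under 0.05, against 16.7% of all genes. The groups did not overlap for 8 of the 9, against 20.9% of all genes. Because these genes were picked with this comparison known, nothing is read from those counts or from the adjusted p-values of single genes of the set. The adjusted p-values that follow only describe how far each value depends on the fit and on single arrays. Dctd lay just outside the threshold (adjusted p = 0.071) and passed with the replicate number as a block (adjusted p = 0.046), and Tyms lay just inside it (adjusted p = 0.029). Rrm2 and, on its brighter probe set, Tk1 were past it whichever array was left out. Rrm1 was not without siMnSOD replicate 1 or 2 (adjusted p = 0.053 and 0.072). Dck was not without siMnSOD replicate 1 or 2 or siScramble replicate 1 or 2 (highest adjusted p = 0.11), and Tyms and Dut were not without any 1 array except siScramble replicate 3 (highest adjusted p = 0.15 and 0.12). The count of 6 fell to 2 without siMnSOD replicate 1 or 2 and to 3 without siScramble replicate 1 or 2.

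The genes of the set did not depart together in replicate 3. Set against the mean of replicates 1 and 2, siScramble replicate 3 stood at −0.71 for Rrm1, −0.79 for Rrm2, −0.86 for Tyms, −0.50 for Tk1, −0.49 for Dck and −0.28 for Rrm2b. It was higher by 0.17 for Dut, 0.28 for Dctd and 0.43 for Tk2. For all genes the 5th and 95th percentiles of this departure were −0.77 and 0.73, so Rrm2 and Tyms lay outside that range and the others inside. In siMnSOD the departure of replicate 3 was −0.51 for Tk1 and −0.43 for Dck, while the other 7 genes stayed between −0.18 and 0.13.

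Of 6 markers of dividing cells measured, Ccne1 and Pcna passed the threshold as higher in siMnSOD, while Mki67, Top2a, Ccna2 and Cdk1 had positive differences that did not (adjusted p between 0.15 and 0.22). The median difference of the 6 was 2.06, and 1.16 without siScramble replicate 3. Without that array 5 of the 6 passed, and 1 passed without any other single array. Their summed intensity ranged from 7619 to 8404 on the siMnSOD arrays and from 1345 to 3689 on the siScramble arrays. In siScramble replicate 3, against the mean of replicates 1 and 2, the proliferation antigen gene Mki67 stood at −2.96, the cyclin gene Ccna2 at −2.71, Top2a at −2.45 and Cdk1 at −1.97. Pcna stood at −0.59 and Ccne1 at −0.08, which is within the range of all genes. The part of these markers in the differences of the set was not tested. In RNA from whole cultures, more cells in S phase and more RNA per cell cannot be told apart.

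**Figure D3:**
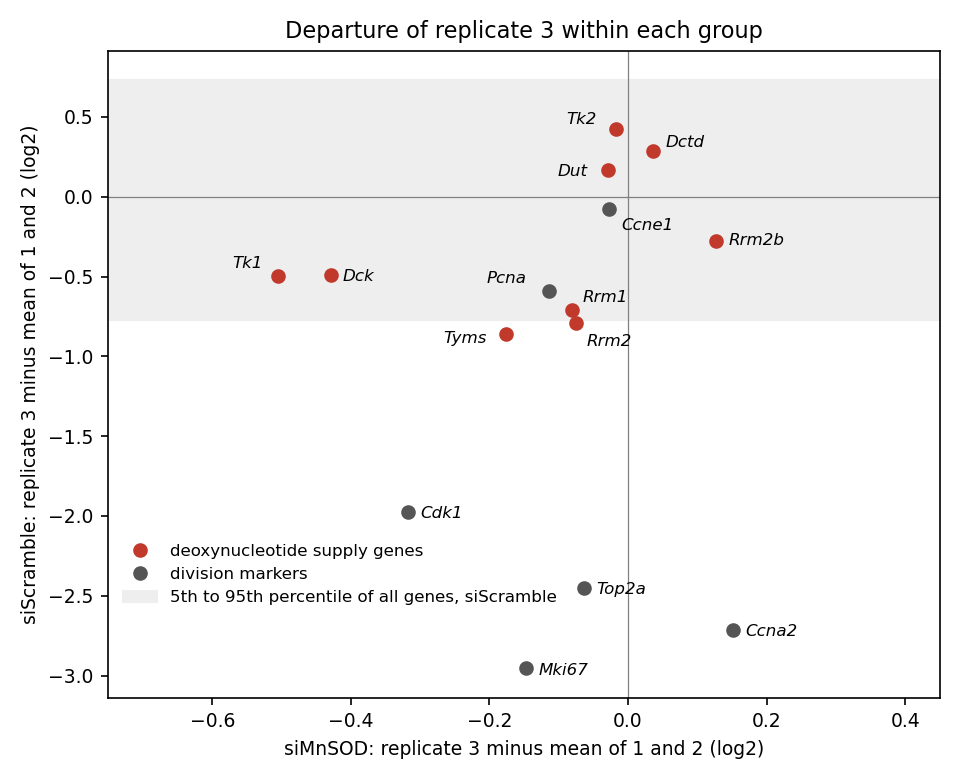
Departure of replicate 3 from the mean of replicates 1 and 2 in log2 units, in siMnSOD (horizontal axis) and siScramble (vertical axis), for the 9 deoxynucleotide supply genes (red) and 6 markers of dividing cells (grey); the shaded band holds the 5th to 95th percentile of all genes in siScramble. Mki67, Ccna2, Top2a and Cdk1 lie far below the band, Rrm2 and Tyms just below it, and Tk2, Dctd and Dut above 0.

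The patterns most like those of Rrm2 and Rrm2b, the genes of the set with the highest and the lowest difference, were looked up over the 6 arrays. Because these differences have opposite signs, separate lists of genes follow from the choice. Of 12888 genes above background, the 5 outside the set with the highest Pearson r to Rrm2 were the helicase gene Mcm5, Uhrf1, which maintains DNA methylation, the histone kinase gene Haspin, Fanci of the Fanconi repair pathway, and the cell cycle factor E2f8, with r of 0.999 for Mcm5. Their differences ranged from 1.28 for Haspin to 2.94 for Uhrf1. For Rrm2b they were the nitric oxide synthase gene Nos2 (r = 0.990), Ddah2, Mrm1, Sstr2 and Igf2r (r = 0.976), with differences between −0.96 and −0.16. The 6 arrays fall in 2 groups and are shared by all these genes, so r is a description only.

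Other genes of nucleotide supply, 77 measured of 87 listed in 8 groups, were tested in the same fit. Of these, 11 were higher and 1 lower in siMnSOD at an adjusted p under 0.05, where 2.17% and 1.58% of all genes were. The median difference of the 77 was 0.25. With the replicate number as a block 16 were higher and 3 lower, where 801 and 623 of all 19938 genes were. On replicates 1 and 2 alone the counts were 33 and 7, against 2343 and 1932 of all 19938 genes. Leaving out 1 array gave 3 higher genes without siMnSOD replicate 1, 1 without siMnSOD replicate 2, 7 without siMnSOD replicate 3, 3 without siScramble replicate 1, 2 without siScramble replicate 2 and 20 without siScramble replicate 3. The lower count was 6 without siScramble replicate 3, 1 without siMnSOD replicate 1 and 0 without any other array.

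**Figure D4:**
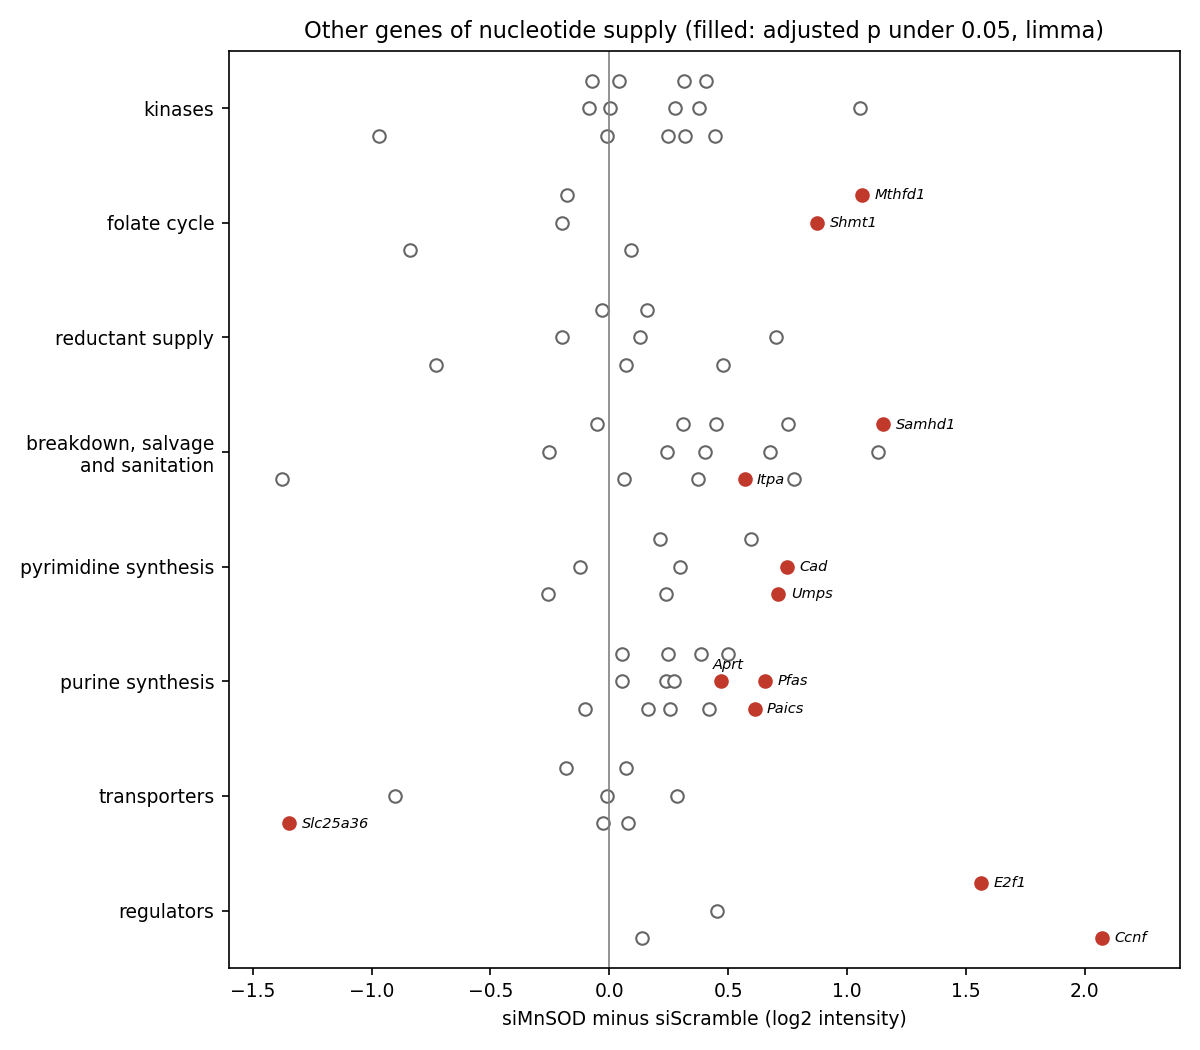
Difference between siMnSOD and siScramble in log2 intensity (horizontal axis) for 77 other genes of nucleotide supply in 8 groups (vertical axis, with points offset for legibility). Filled and named points have an adjusted p under 0.05 in limma: 11 lie to the right of 0 and Slc25a36 to the left.

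The folate cycle, which hands Tyms its methyl group, had 2 higher genes of 6 measured. Mthfd1, a trifunctional enzyme of cytosolic folate metabolism, read 9.53, 9.63 and 9.73 in siMnSOD and 8.45, 8.50 and 8.74 in siScramble, and rose by 1.06 (SE 0.12, adjusted p = 0.009). The cytosolic serine hydroxymethyltransferase gene Shmt1 read 8.31, 8.56 and 8.29 against 7.58, 7.62 and 7.33 and rose by 0.88 (SE 0.13, adjusted p = 0.020). Both are cytosolic and their groups did not overlap. The median of the 6 genes was −0.04. Mthfd2, a mitochondrial folate enzyme named after its values were seen, had the lowest difference, −0.84 (SE 0.39, adjusted p = 0.37), with −1.39, −1.28 and 0.16 within replicate numbers 1, 2 and 3. On replicates 1 and 2 alone, 2 of the 6 genes were higher and 2 lower, where 2343 and 1932 of all 19938 genes were.

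Among 15 measured genes for breakdown, salvage and sanitation of deoxynucleotides, 2 rose, none fell, and the median was 0.40. With the replicate block 5 were higher and 1 lower, where 801 and 623 of all 19938 genes were. Samhd1, which hydrolyses dNTPs to deoxynucleosides, read 7.56, 7.69 and 7.86 in siMnSOD and 6.48, 6.48 and 6.69 in siScramble, a rise of 1.15 (SE 0.13, adjusted p = 0.0081). This enzyme opposes ribonucleotide reductase, and its transcript was higher along with Rrm1 and Rrm2. Itpa, which removes deaminated purine nucleotides, rose by 0.57 (SE 0.11, adjusted p = 0.045), and its second probe set gave 0.55. With all probe sets tested in limma neither probe set passed (adjusted p = 0.077 and 0.057). The genes that passed with the block alone, named after their values were seen, were Dctpp1 (difference 1.13), Nudt1 (0.75) and Dnph1 (0.68) as higher and Nt5e as lower. Nt5e, the ecto-5′-nucleotidase, had the largest difference of the list in size, −1.38 (SE 0.31, adjusted p = 0.067, or 0.034 with the block), and its groups did not overlap.

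Ribonucleotide synthesis, which provides the substrates of the reductase, was higher in part. Of 8 pyrimidine genes Cad, which carries the opening steps, rose by 0.75 (SE 0.11, adjusted p = 0.020), and Umps, which completes UMP, by 0.71 (SE 0.14, adjusted p = 0.043). Of 14 purine genes 3 rose: Pfas by 0.66 (SE 0.10), Paics by 0.61 (SE 0.11) and the adenine salvage gene Aprt by 0.47 (SE 0.09), with adjusted p between 0.024 and 0.045. The medians were 0.27 and 0.26. Prps1, which makes the ribose donor for both routes, had 0.05 (SE 0.15).

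The 14 measured nucleoside and nucleotide kinases other than those of the set had a median of 0.26, and none passed in limma, while 4 had an unadjusted p under 0.05, where 16.7% of all genes did. Dtymk, which phosphorylates dTMP made by Tyms and Tk1, read 9.17, 9.17 and 8.91 in siMnSOD and 8.32, 8.35 and 7.41 in siScramble, with a difference of 1.05 (SE 0.26, adjusted p = 0.086, or 0.032 with the replicate block). The adenylate kinase gene Ak1, named after its values were seen, had −0.97 (SE 0.37, adjusted p = 0.25, or 0.024 with the block). So with the block 1 kinase was higher and 1 lower, where 801 and 623 of all 19938 genes were. None of 8 genes for the reductant supply of the reductase passed, with a median of 0.10 and 3 at an unadjusted p under 0.05, also against 16.7% of all genes. Gsr and Txnrd3, named after their values were seen, had the highest and the lowest difference of this list. Gsr had 0.70 (SE 0.14, limma adjusted p = 0.052, or 0.054 with the block). Txnrd3 had −0.73 (SE 0.26, limma adjusted p = 0.21, or 0.082 with the block). The thioredoxin gene Txn1 had 0.48 (SE 0.13, adjusted p = 0.10), and 0.025 was its adjusted p without siScramble replicate 3.

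Of 8 measured nucleoside and nucleotide transporter genes, 3 had positive and 5 negative differences. Slc25a36, a mitochondrial carrier of pyrimidine nucleotides, was the only 1 past the threshold, with lower values in siMnSOD. It read 9.15, 8.09 and 8.58 in siMnSOD and 9.84, 10.08 and 9.95 in siScramble, so the knockdown arrays differed by up to about 1 log2 unit while the controls were close. It fell by 1.35 on the log2 scale (SE 0.26, adjusted p = 0.041), and its dimmer probe set had −1.42. With all probe sets tested in limma neither probe set passed (adjusted p = 0.069 and 0.091). Slc29a1, the equilibrative nucleoside transporter of the plasma membrane, had 0.29 (SE 0.11). Slc25a33, named after its values were seen, had −0.90 (SE 0.22, limma adjusted p = 0.083, or 0.072 with the block), and its groups did not overlap. On replicates 1 and 2 alone, 0 of the 8 genes were higher and 2 lower, where 2343 and 1932 of all 19938 genes were.

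Regulators of the reductase and of thymidine kinase included 2 higher genes of 4 measured. Ccnf, the F-box protein that marks Rrm2 for degradation in G2, read 8.24, 8.45 and 8.45 in siMnSOD and 6.55, 6.42 and 5.95 in siScramble, and rose by 2.07 (SE 0.17, adjusted p = 0.0040). E2f1, a transcription factor of S-phase genes, rose by 1.56 (SE 0.24, adjusted p = 0.021), and its control replicate 3 was 0.85 above the mean of the other two controls. That array was therefore high for E2f1 and low for Rrm1, Rrm2, Tk1, Tyms and Dck.

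Of the 12 genes past the threshold in these groups, only Ccnf stayed past it whichever array was left out. Samhd1 lost its call without siMnSOD replicate 2 (adjusted p = 0.063), and Mthfd1 without siMnSOD replicate 2 or siScramble replicate 2 (0.065 and 0.056). Slc25a36 lost it without siMnSOD replicate 2 or 3 or siScramble replicate 1 or 2 (highest adjusted p = 0.16). The other 8 lost it without any 1 of siMnSOD replicates 1 and 2 and siScramble replicates 1 and 2, with a highest adjusted p between 0.105 for Shmt1 and 0.21 for Itpa. E2f1, Paics, Umps, Itpa and Aprt also lost it without siMnSOD replicate 3.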

How the data were processed

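RNA of 3 siMnSOD and 3 siScramble AML-12 samples was measured, 1 array per sample. Intensities were deposited by the authors already normalized, and not on a log scale. The authors used RMA per the submitters' processing notes, whereas the labels' design text names MAS5 scaling; no version is named in those sources. Of 35557 probe sets, 21789 had 1 gene symbol, 1621 several and 12147 none; symbols were updated through Entrez identifiers (21698 matched) in a RefSeq table of GRCm38.p6. The brightest probe set stood for a gene, and rows with several symbols were tested but not named, which gave 21559 tested rows.

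After a log2 transform, limma 3.58.1 under R 4.3.3 was applied to every tested row (lmFit, eBayes), with group as the only term, no filter, and Benjamini-Hochberg adjustment over all tested rows. The call threshold was an adjusted p of 0.05. Scripts were tested on simulated data. Precision is limited by having 3 arrays per group.

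The members, lists, tests and alternatives were chosen with earlier results of these data known. Genes were named by rule: all members, Sod2, up to 12 pathway genes past the threshold in each direction, the first gene of a list where it was measured and the 5 genes most like Rrm2 and Rrm2b. Markers of cell type and division were named beside it. For replicate numbers 1, 2 and 3, the correlation across genes between the 2 samples' departures from their own group mean was 0.38, 0.33 and 0.55. Each exceeded 0.1, but the main fit, with its SE and adjusted p-values, did not pair the arrays. The numbers were used as pairs only for differences within replicate numbers and in an alternative fit with the replicate block. Replicates 1 and 2 were not told apart: siMnSOD 1 with siScramble 2 gave 0.45 and siMnSOD 2 with siScramble 1 gave 0.36. The other alternatives changed the scaling, the probe set rule, the rows tested, the variance model and the arrays left out.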

Additional observations from a re-analysis of the deposited data

How the results depend on the processing

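The differences of the 9 genes were recomputed under 14 alternatives. None of the 126 values changed sign, 103 stayed on their side of the threshold, 18 no longer passed and 5 newly passed. Of those 5, 4 were values of Dctd, as higher. The other was Rrm2b, as lower, on replicates 1 and 2 alone (difference −0.54, limma adjusted p = 0.032), where 1932 of all 19938 genes were lower. Tyms also lost its call with arrays centred on their medians (adjusted p = 0.056) and with all probe sets tested (0.053). Of the 364 values of 26 genes (these 9, Sod2 and the pathway genes named by rule; markers and the genes most like Rrm2 and Rrm2b were not included), 268 kept direction and side of the threshold, 83 no longer passed, 10 newly passed and 3 reversed. The reversed values were those of Prps1, at −0.022 without siMnSOD replicate 2, −0.086 without siScramble replicate 3 and −0.037 on replicates 1 and 2 alone, within a range of −0.086 to 0.142 when 1 array was left out; the cause was not tested.

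Counts of all genes, 432 higher and 316 lower, were 801 and 623 with the replicate block, 2343 and 1932 on replicates 1 and 2 alone, and 278 and 154 with all probe sets tested. They ranged from 52 to 1119 higher and from 25 to 1119 lower when 1 array was left out, siMnSOD replicate 2 and siScramble replicate 3 giving the extremes. With arrays centred on their medians 140 were lower and 365 higher, or 72.3% higher against 57.8%. The 11 higher genes of other nucleotide supply became 7 with all probe sets tested and 33 on replicates 1 and 2 alone, and ranged from 1 to 20 when 1 array was left out. The 1 lower gene became 0 with arrays centred on their medians or with all probe sets tested, 3 with the replicate block, 7 on replicates 1 and 2 alone, and 0 to 6 when 1 array was left out. The 6 genes of the set past the threshold became 2 to 7 when 1 array was left out.

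Among those 26 genes the replicate block changed the calls of Dctd and Dtymk only. Among the other pathway genes and markers of the lists it added Krt8, Ak1, Dctpp1, Nudt1, Dnph1, Nt5e and Dhodh. Its counts over all genes are given above. Centring raised the median difference of all genes from 0.01 to 0.09. Signal over background limits what can be seen for 7050 of 19938 genes, whereas all 9 genes of the set were above background.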
